A study of Homo sapiens with 6 samples.

Results

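Antisense long noncoding RNA (lncRNA) genes, which carry the name of the gene they lie opposite followed by -AS and a number, were examined in human bronchial epithelial cells together with the genes they are named for. A gene was included when its name had this form and its counts summed to at least 60 over the 6 libraries, and 407 of the 1817 antisense names in the count table met this rule. The table held 61228 genes, of which 15223 reached the same 60 counts and were tested. The genes were thus chosen by their counts summed over both groups, so levels are given as a description. The comparison of treatments was not part of the rule, but 18 genes had under 30 counts in one of the groups and so reached 60 through the other, 9 through each, and their difference is partly set by the rule. *CYP1B1-AS1* is the only one of them that was called below, and its change is given as a description.

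The samples were HBE cells, an immortalized wild-type bronchial epithelial line, and every library came from cells given cockroach extract (CRE), an allergen preparation. In the CRE group (n = 3) the extract was given alone, and in the CRE + VAF347 group (n = 3) the cells first received 20 μM VAF347, an agonist of the aryl hydrocarbon receptor (AhR), with an exposure of 24 h. The comparison asks which RNAs change when AhR is activated in allergen-treated cells, and no cells without CRE are included here. The labels do not say whether replicates were separate cultures, so p-values measure only the spread between these libraries, which may be technical.

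Antisense lncRNAs are transcribed from the strand opposite to another gene, and they may start beside its promoter, overlap its end or lie within it. Some are known to affect the chromatin, splicing or stability of their partner, some act elsewhere in the cell, and for most no function is established. AhR is a ligand-activated transcription factor that enters the nucleus, pairs with ARNT and binds DNA elements built around the letters GCGTG, and cytochrome P450 genes are its best known targets.

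Promoter windows of the 4 antisense genes that rose with VAF347, and of *ALDH1A3* as the partner that rose beside one of them, show how much these genes differ in that core. Each window spans 250 bases before to 50 bases after the start in RefSeq (GRCh38.p14), is written from 5′ to 3′ on the strand of the gene, and has in capitals every GCGTG or its reverse complement CACGC.
SLC9A3-AS1: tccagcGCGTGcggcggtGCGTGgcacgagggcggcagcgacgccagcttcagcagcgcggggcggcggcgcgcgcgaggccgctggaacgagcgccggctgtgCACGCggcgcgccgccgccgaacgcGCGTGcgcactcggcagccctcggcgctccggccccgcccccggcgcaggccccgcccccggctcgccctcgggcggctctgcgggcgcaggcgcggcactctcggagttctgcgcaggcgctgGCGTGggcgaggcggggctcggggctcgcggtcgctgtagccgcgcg
CYP1B1-AS1: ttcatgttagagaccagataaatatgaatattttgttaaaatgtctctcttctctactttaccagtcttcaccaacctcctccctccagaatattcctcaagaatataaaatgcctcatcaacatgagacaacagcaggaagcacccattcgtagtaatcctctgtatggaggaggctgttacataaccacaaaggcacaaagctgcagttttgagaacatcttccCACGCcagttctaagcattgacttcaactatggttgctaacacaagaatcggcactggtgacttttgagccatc
ALDH1A3-AS1: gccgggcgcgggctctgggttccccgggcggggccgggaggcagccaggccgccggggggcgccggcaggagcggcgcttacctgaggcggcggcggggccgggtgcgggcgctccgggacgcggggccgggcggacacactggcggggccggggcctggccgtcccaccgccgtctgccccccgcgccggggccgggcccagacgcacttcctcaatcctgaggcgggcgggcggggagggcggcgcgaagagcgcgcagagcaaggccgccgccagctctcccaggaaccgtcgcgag
ALDH1A3: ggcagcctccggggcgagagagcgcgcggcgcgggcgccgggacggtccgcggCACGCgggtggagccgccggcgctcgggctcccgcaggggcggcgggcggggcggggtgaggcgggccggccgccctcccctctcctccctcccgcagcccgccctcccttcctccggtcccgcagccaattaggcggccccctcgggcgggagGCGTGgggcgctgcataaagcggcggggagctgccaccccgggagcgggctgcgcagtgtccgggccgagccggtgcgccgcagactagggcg
STEAP1B-AS1: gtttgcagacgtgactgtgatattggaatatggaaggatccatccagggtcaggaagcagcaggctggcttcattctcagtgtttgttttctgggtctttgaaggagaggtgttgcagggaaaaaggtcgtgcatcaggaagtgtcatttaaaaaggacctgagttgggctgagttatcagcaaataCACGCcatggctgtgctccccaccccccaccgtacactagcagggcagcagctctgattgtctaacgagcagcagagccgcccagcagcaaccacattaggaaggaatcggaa

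The *SLC9A3-AS1* window (chr5:472986-473285, plus strand) holds 5 copies of the core. Of all 27305 RefSeq promoters, 0.535% hold 5 or more. That set is poorer in the core than windows of tested genes, as given below. For tested genes the share with 5 or more was not computed, so how rare this window is among them is not known. The *CYP1B1-AS1* window (chr2:38130855-38131154, plus strand) holds 1 copy, but its RefSeq start lies 57658 bases from the start in GENCODE, the annotation used for positions here. These starts also differ by 2117 bases for *ALDH1A3*, 2642 for *ELF3* and 1154 for *TMEM51-AS1*, more than the 300 bases of a window. For *ALDH1A3-AS1* and *ELF3-AS1* they differ by 108 and 110 bases. The *ALDH1A3-AS1* window (chr15:100919234-100919533, minus strand) holds 0 copies, the *ALDH1A3* window (chr15:100879581-100879880, plus strand) holds 2 and the *STEAP1B-AS1* window (chr7:22563087-22563386, plus strand) holds 1. Among windows not printed, that of *SLC9A3*, whose log2 fold change was 0.00, holds 3 copies. Those of *ELF3-AS1*, *TMEM51-AS1* and *ELF3*, which fell, hold 0. No window was available for *GASK1B-AS1*, which also fell, or for *CYP1B1*, which rose, so the set is partial. Whether copies of the core go with a change was not tested. At least 1 copy is present in 36.3% of all RefSeq promoters, in 50.9% of the 11049 windows of tested genes, in 47.5% of the 305 windows found for the 407 antisense genes and in 49.5% of the 303 windows of their sense genes. A match is a description of the letters and not a binding site.

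The 407 antisense genes were expressed at low levels. Their share of all counts was 0.299%, 0.306% and 0.290% with CRE alone, and with VAF347 added it was 0.314%, 0.321% and 0.323%, from totals of 9805976 to 10750283 and 8873160 to 9917913 counts. The median level was 4.47 TPM (a level scaled to transcript length and depth), with a range from 0.334 to 91.1 TPM, and 25 genes were under 1 TPM and 81 over 10 TPM. By annotation, 403 were lncRNAs, 2 transcribed unitary pseudogenes, 1 a transcribed processed pseudogene and 1 still to be experimentally checked. The name ended in AS1 for 384 of them, in AS2 for 20 and in AS3 for 3.

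Closest to the limit, *EXOSC10-AS1* and *ITFG2-AS1* lay just inside it with 60.005 and 60.105 counts, and *DLG1-AS1* and *ZNF497-AS1* just outside it with 59.222 and 59.0 counts. Depth set the precision of a fold change: the median standard error (SE) of the log2 fold change was 0.33 for the 109 antisense genes with 60 to 120 counts, 0.23 for 181 with 120 to 400, 0.14 for 75 with 400 to 1000 and 0.092 for 42 with more. A change of the size called here could therefore be missed in many of the least abundant antisense genes.

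For 401 antisense genes the annotation has a gene of the preceding name, and for 6, among them *HOXA-AS2* and *HOXA-AS3* of the HOXA cluster, it has none. Head-to-head pairs, with both 5′ ends within 1000 bases on opposite strands, numbered 128. Another 101 were embedded, with one gene inside the other, 87 overlapped in their 5′ parts over a longer stretch and 81 were convergent, overlapping at their 3′ ends. In 322 pairs exons of the partners overlapped on opposite strands, by a median of 389.5 bases. The libraries were enriched for poly(A) RNA, and the sources used here do not say whether the strand of a read was kept. It is therefore not known whether reads from such shared bases were told apart.

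The sense gene was itself tested for 360 antisense genes, and these pairs involve 358 sense genes because *TFAP2A* and *PTOV1* each have 2 antisense partners. The antisense gene was usually the lower of the pair, at a median of 17.5% of the TPM of its sense gene, and it was under 10% in 136 pairs and under 1% in 16. In 63 pairs the antisense gene was the higher. The plot of levels shows the 360 pairs by orientation.

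**Figure D1:**
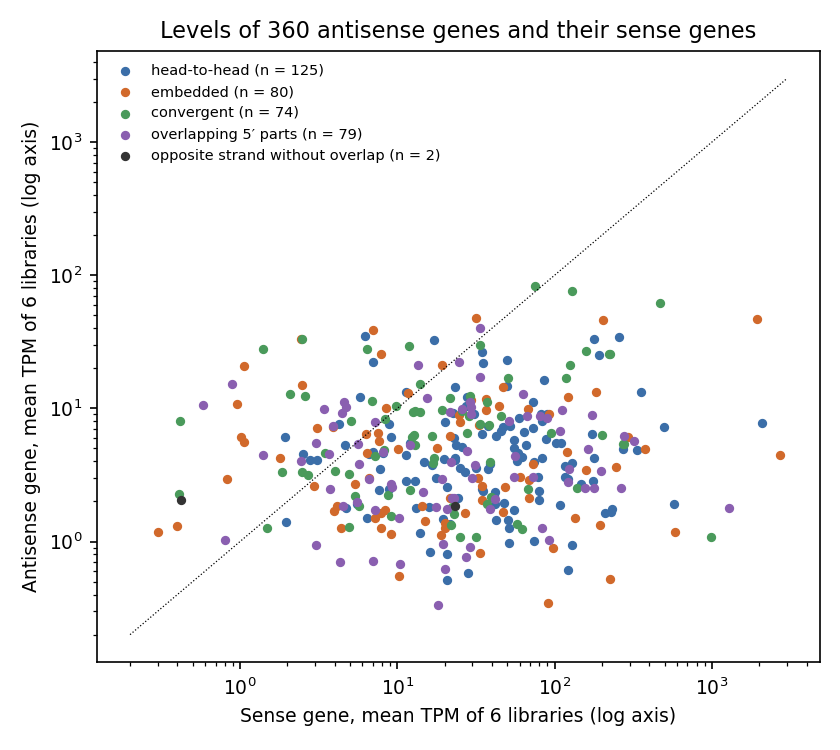
Mean TPM over 6 libraries of 360 antisense genes (vertical, log axis) against their sense genes (horizontal, log axis), coloured by orientation, with the dotted line marking equal levels. Most points lie below the line, with a median antisense level of 17.5% of sense, and 63 pairs lie above it.

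Few antisense genes were called different between the groups, as was so for genes in general. In edgeR's quasi-likelihood test with Benjamini-Hochberg adjustment over all 15223 genes, 7 of 407 antisense genes passed an adjusted p of 0.05 with an absolute log2 fold change over 0.5, which is 1.72% against a background of 2.23% (339 genes) over all tested genes. The 4 higher ones were *CYP1B1-AS1*, *ALDH1A3-AS1*, *SLC9A3-AS1* and *STEAP1B-AS1*, where 0.499% of all tested genes (76) were called higher. The 3 lower ones were *ELF3-AS1*, *TMEM51-AS1* and *GASK1B-AS1*, where 1.73% of all tested genes (263) were called lower. One of the 7, *CYP1B1-AS1*, reached 60 counts only through the CRE + VAF347 group, which leaves 6. With the fold limit the share of antisense genes called was near that of genes in general, while at an adjusted p of 0.05 and any fold change it stayed at 1.72% against 5.63% of all genes. The count fell to 3 without CRE + VAF347 replicate 2 and to 4 without CRE replicate 2, CRE + VAF347 replicate 1 or CRE + VAF347 replicate 3. CRE replicate 3 stood apart from the other CRE libraries, with a mean chi-square of 9.31 and 9.03 per gene against them where these differed from each other by 2.49, and 6 antisense genes were called without it.

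The whole set was centred near 0, with a median log2 fold change of 0.02 (all genes 0.00) and quartiles of -0.16 and 0.18 (all genes -0.13 and 0.12). By sign alone 219 values were above 0 and 188 below, and 366 antisense genes (89.9%) lay within 0.5 of 0 on the log2 scale. At an unadjusted p of 0.05, 40 antisense genes (9.83%) passed against 20.8% of all genes. The depth-scaled counts (CPM, the count as a share of the library's total after scaling) of the 3 CRE and 3 CRE + VAF347 libraries did not overlap for 63 antisense genes (15.5%), against 27.4% of all genes. The antisense genes rest on a median of 209 counts over 6 libraries, and the part of depth in their lower shares was not tested.

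**Figure D2:**
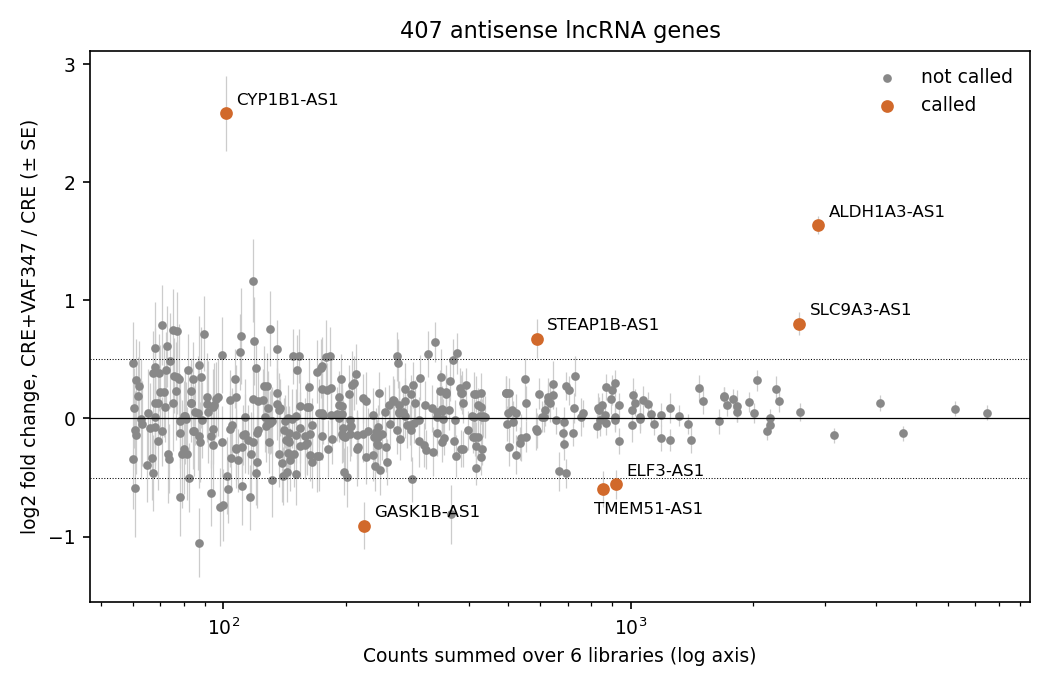
Log2 fold change of CRE + VAF347 over CRE (vertical, bars are 1 SE) against counts summed over 6 libraries (log axis) for 407 antisense genes, with the 7 called in orange and dotted lines at a log2 fold change of 0.5 in each direction. Values spread widely below 120 counts, where the median SE is 0.33, and narrow to the right, where *ALDH1A3-AS1* and *SLC9A3-AS1* stand above the rest.

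*CYP1B1-AS1*, on chr2:38073447-38231651 (GRCh38, plus strand), showed the largest change. Its partner *CYP1B1* encodes a cytochrome P450 monooxygenase that is a textbook AhR target. *CYP1B1-AS1* was at 0.521, 0.296 and 0.652 CPM in the CRE libraries and at 2.81, 3.25 and 2.98 CPM in the CRE + VAF347 libraries. All 3 CRE + VAF347 libraries lay well above the 3 CRE libraries, which rest on few counts (5.1, 3.0 and 7.5). The fitted log2 fold change was 2.58 (SE 0.32), with no test given, because its 15.6 counts with CRE and 85.8 with CRE + VAF347 met the limit only through the group in which it was high. *CYP1B1* rose from 69.9 ± 4.08 to 612 ± 45.1 CPM (SD, n = 3 each), a log2 fold change of 3.13 (SE 0.08). The genes overlap in their 5′ parts and share 678 exonic bases on opposite strands.

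*ALDH1A3-AS1*, on chr15:100892343-100919391 (minus strand), had the most precise rise. Its partner *ALDH1A3* encodes an aldehyde dehydrogenase that makes retinoic acid from retinaldehyde. The CRE libraries read 25.1, 22.6 and 24.9 CPM and the CRE + VAF347 libraries 71.9, 81.1 and 72.8 CPM, so the groups were far apart. The log2 fold change was 1.64 (SE 0.08, adjusted p = 1.38e-06 by the edgeR quasi-likelihood test), and it was called in each of 16 alternative fits. *ALDH1A3* rose by nearly the same factor, from 206 ± 13.3 to 684 ± 40.5 CPM (SD, n = 3 each), with a log2 fold change of 1.73 (SE 0.07). The pair is convergent and shares 1715 exonic bases.

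*SLC9A3-AS1*, on chr5:473236-480884 (plus strand), lies inside *SLC9A3*, which encodes the sodium and proton exchanger NHE3. It was at 30.6, 37.9 and 28.3 CPM with CRE and at 55.1, 57.3 and 56.4 CPM with CRE + VAF347. The groups did not overlap, and the 3 treated libraries were almost equal. Its log2 fold change was 0.80 (SE 0.10, adjusted p = 0.0011 by edgeR's quasi-likelihood test). *SLC9A3* itself was at 31.9 ± 1.05 and 32.0 ± 2.81 CPM (SD, n = 3 each), a log2 fold change of 0.00 (SE 0.08, adjusted p = 0.987 in the same edgeR fit). In limma fits on TPM the call of *SLC9A3-AS1* was lost, with a log2 fold change of at least 0.68 and an adjusted p of up to 0.265 over all alternatives.

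*STEAP1B-AS1*, on chr7:22563337-22573996 (plus strand), lies within *STEAP1B*, a gene of the STEAP family of membrane proteins. With CRE its CPM were 8.23, 9.28 and 5.77, and with CRE + VAF347 they were 12.3, 13.2 and 11.5, with no overlap. The log2 fold change was 0.67 (SE 0.16, adjusted p = 0.0386 by edgeR's quasi-likelihood test). *STEAP1B* had 1.63 ± 0.293 and 2.04 ± 0.233 CPM (SD, n = 3 each) and a log2 fold change of 0.31 (SE 0.26, edgeR adjusted p = 0.548). Leaving out CRE replicate 1 or any CRE + VAF347 replicate ended the call of *STEAP1B-AS1*, with log2 fold changes of 0.62 to 0.73 and edgeR adjusted p of 0.0622 to 0.149.

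*ELF3-AS1*, on chr1:201995696-202010463 (minus strand), overlaps the 5′ part of *ELF3*, an ETS transcription factor of epithelial cells. Its values were 19.4, 19.2 and 16.9 CPM with CRE and 14.6, 11.8 and 11.3 CPM with CRE + VAF347, and the groups did not overlap. The fall of 0.56 on the log2 scale (log2 fold change -0.56, SE 0.12, adjusted p = 0.0232 by the edgeR quasi-likelihood test) had the size of that of *ELF3*, which went from 480 ± 6.60 to 327 ± 15.7 CPM (SD, n = 3 each; log2 fold change -0.55, SE 0.06). The call was lost without CRE replicate 1 or 2 or CRE + VAF347 replicate 2 or 3 (log2 fold change -0.52 to -0.49, edgeR adjusted p 0.0645 to 0.12). In TPM the groups overlapped, at 7.70, 5.42 and 5.47 against 6.81, 4.21 and 4.53, and limma on log2(TPM + 1) gave -0.23 (adjusted p = 0.744).

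*TMEM51-AS1*, on chr1:15111815-15153618 (minus strand), overlaps the 5′ part of *TMEM51*, which encodes a transmembrane protein. It was at 14.0, 17.3 and 20.4 CPM in the CRE libraries and 11.6, 9.95 and 12.7 CPM in the CRE + VAF347 libraries. The highest treated library lay below the lowest CRE library. The log2 fold change was -0.60 (SE 0.15, adjusted p = 0.045 by edgeR's quasi-likelihood test), the weakest of the 7 calls. *TMEM51* fell less, from 73.8 ± 3.26 to 59.1 ± 2.63 CPM (SD, n = 3 each; log2 fold change -0.32, SE 0.07, edgeR adjusted p = 0.0183), short of the fold limit. Without CRE replicate 2 or 3 or any CRE + VAF347 replicate the antisense call was lost (log2 fold change -0.68 to -0.44, edgeR adjusted p 0.0596 to 0.18).

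*GASK1B-AS1*, on chr4:158170752-158202877 (plus strand), overlaps the 5′ part of *GASK1B*, named as a Golgi-associated kinase. The CRE libraries had 4.38, 4.84 and 5.22 CPM and the CRE + VAF347 libraries 2.92, 2.62 and 2.19 CPM, again without overlap. Its log2 fold change was -0.91 (SE 0.20, adjusted p = 0.0252 by edgeR's quasi-likelihood test). *GASK1B* fell alongside it, from 7.20 ± 1.20 to 3.34 ± 0.807 CPM (SD, n = 3 each; log2 fold change -1.10, SE 0.21, edgeR adjusted p = 0.0125). The antisense call was lost without CRE replicate 2 or any CRE + VAF347 replicate (log2 fold change -1.002 to -0.80, edgeR adjusted p 0.0562 to 0.116).

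**Figure D3:**
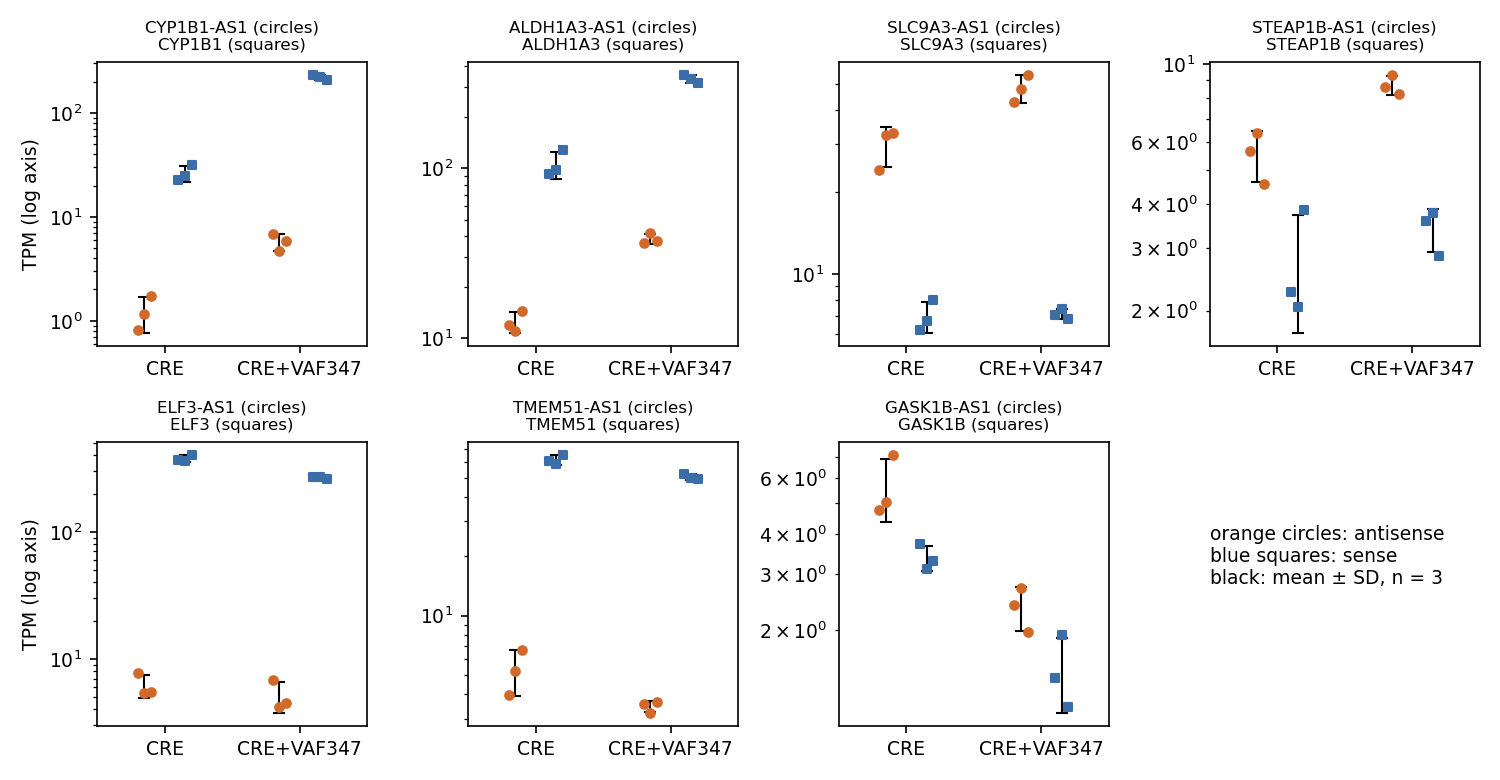
TPM (log axis) of the 7 called antisense genes (orange circles) and their sense genes (blue squares) in each library, with the mean ± SD (n = 3) in black. *CYP1B1-AS1* and *ALDH1A3-AS1* rise beside their sense genes, *SLC9A3-AS1* rises over a level *SLC9A3*, and the groups of *ELF3-AS1* overlap on this scale.

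Across the 360 pairs the sense genes themselves were called in 11 of 358 cases (3.07%, background 2.23%), 4 higher and 7 lower. In 4 pairs both partners were called, *CYP1B1*, *ALDH1A3*, *ELF3* and *GASK1B* with their antisense genes, each pair in the same direction. Of these, *CYP1B1-AS1* met the count limit only through the CRE + VAF347 group, so its pair is a description. All 7 called antisense genes share exonic bases with their sense gene, as is so in 297 of the 360 pairs. Over 360 pairs the log2 fold changes had a Pearson r of 0.55 and a Spearman rho of 0.29, and without *CYP1B1-AS1* and *ALDH1A3-AS1* r was 0.37 and rho 0.27. These are descriptions over pairs measured in the same 6 libraries. The 63 pairs without shared exonic bases had r of 0.39 and rho of 0.39, and the 297 with shared bases 0.56 and 0.25. Where the log2 fold change of the sense gene exceeded 0.3 in size, 14 pairs without shared bases had r of 0.14 and rho of 0.04. The 43 with shared bases had 0.85 and 0.55. Both the 297 and the 43 include *CYP1B1-AS1*, which met the count limit only through the CRE + VAF347 group, and *ALDH1A3-AS1*. Values without these genes were not computed for either subset, so nothing is read from the contrast with pairs without shared bases. Signs were the same in 10 of these 14 and 30 of these 43. The part of shared reads was not tested. Both partners had the same sign in 200 pairs (55.6%).

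**Figure D4:**
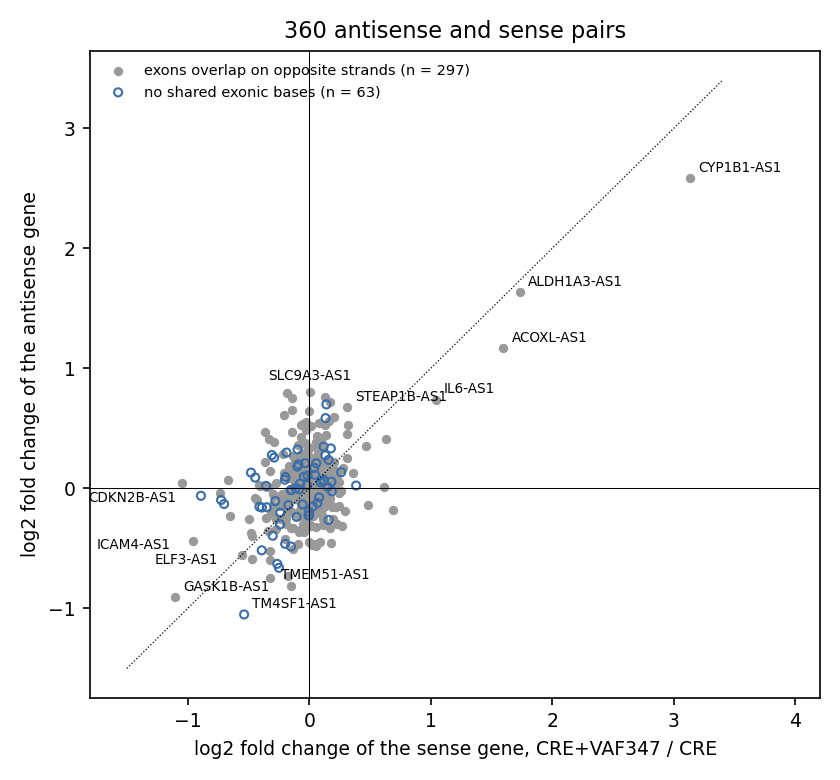
Log2 fold change (CRE + VAF347 over CRE) of the antisense gene (vertical) against its sense gene (horizontal) for 360 pairs, with open blue circles for the 63 pairs without shared exonic bases and the dotted line marking equal change. *CYP1B1-AS1*, *ALDH1A3-AS1* and *ACOXL-AS1* lie near the line at upper right, *SLC9A3-AS1* lies above a sense value of 0.00, and most pairs crowd around 0.

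In 7 pairs the sense gene was called while its antisense gene was not. *ACOXL*, an acyl-CoA oxidase-like gene, rose from 6.15 ± 0.446 to 18.6 ± 1.99 CPM (SD, n = 3 each; log2 fold change 1.60). Its antisense gene *ACOXL-AS1* had 1.35, 1.48 and 0.931 CPM with CRE and 3.59, 3.35 and 1.59 CPM after VAF347 was added. This gave a log2 fold change of 1.17 (SE 0.35, edgeR quasi-likelihood adjusted p = 0.0841). The third treated library lay close to the CRE libraries, and without it the value was 1.46 (adjusted p = 0.0383 by edgeR), past the threshold. Leaving out any other single library kept *ACOXL-AS1* uncalled (log2 fold change 0.97 to 1.31, edgeR adjusted p 0.113 to 0.257). *IL6*, which encodes an inflammatory cytokine, rose from 5.59 ± 1.06 to 11.4 ± 1.46 CPM (SD, n = 3 each; log2 fold change 1.04), and *IL6-AS1* had 0.729, 0.889 and 1.30 against 1.35, 2.09 and 1.49 CPM (log2 fold change 0.74, SE 0.33, adjusted p = 0.235 in the edgeR fit).

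Of the sense genes that fell, *TM4SF1*, a gene of a tetraspan membrane protein, went from 118 ± 14.6 to 81.2 ± 6.05 CPM (SD, n = 3 each; log2 fold change -0.54). *TM4SF1-AS1*, which starts 86 bases away in head-to-head orientation and shares no exonic bases with it, had 2.19, 1.78 and 1.96 CPM against 0.674, 1.05 and 1.09 CPM (log2 fold change -1.05, SE 0.29, adjusted p = 0.0658 in the edgeR fit). The groups of *TM4SF1-AS1* did not overlap, on 21, 18 and 21 against 6, 10 and 11 counts, but it did not pass the threshold. *ICAM4*, an adhesion molecule gene, fell from 8.74 ± 0.343 to 4.50 ± 0.379 CPM (SD, n = 3 each; log2 fold change -0.96), beside an *ICAM4-AS1* value of -0.44 (SE 0.21, edgeR adjusted p = 0.279). *RNF157*, a ubiquitin ligase gene, had a log2 fold change of -0.65 and *RNF157-AS1* one of -0.23 (SE 0.27, edgeR adjusted p = 0.667).

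*CDKN2B* and *TTC28* fell while their antisense genes stayed within error of 0. *CDKN2B*, which encodes the cell cycle inhibitor p15, went from 101 ± 1.11 to 54.5 ± 5.07 CPM (SD, n = 3 each; log2 fold change -0.89, SE 0.07). *CDKN2B-AS1*, also known as ANRIL, read 14.1, 14.7 and 14.2 CPM with CRE and 13.1, 14.5 and 13.5 CPM with CRE + VAF347 (log2 fold change -0.06, SE 0.10, edgeR adjusted p = 0.766), and the groups overlapped. The annotation places *CDKN2B* inside *CDKN2B-AS1* with 0 shared exonic bases. *TTC28*, a tetratricopeptide repeat gene, had a log2 fold change of -0.67 (SE 0.15) and *TTC28-AS1* one of 0.07 (SE 0.10, edgeR adjusted p = 0.736).

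The ratio of antisense to sense TPM was compared within each library for the 14 pairs in which at least 1 partner was called. It did not overlap between the groups in 5 of them, where an exact permutation test over the libraries gave p = 0.1, two-sided and unadjusted, the smallest that 3 against 3 allows. Over all 360 pairs the ratio did not overlap in 50, or 13.9%, and the 14 pairs were taken for their calls, so nothing is read from the count. *SLC9A3-AS1* was at 385%, 482% and 410% of *SLC9A3* with CRE and at 606%, 639% and 784% with CRE + VAF347. For *CDKN2B-AS1* the ratio was 27.7%, 25.03% and 24.8% against 41.7%, 47.5% and 42.9%. In the first pair the antisense gene was called and in the second the sense gene.

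The ratio of *TTC28-AS1* also shifted upward, from 1099%, 1796% and 1689% to 4189%, 2907% and 2921%. Its size depends on the unit, with a log2 shift of 1.14 as a ratio of TPM and 0.76 as a ratio of counts. The TPM ratio of *ICAM4-AS1* went from 22.7%, 16.4% and 15.99% to 26.9%, 24.2% and 28.0%. Only *CYP1B1-AS1* among the 5 shifted downward, from 3.54%, 4.67% and 5.57% of *CYP1B1* to 2.96%, 2.09% and 2.83%, beside the log2 fold changes of 2.58 and 3.13 given above. As a ratio of counts the groups of this pair overlapped. *ALDH1A3-AS1* kept overlapping ratios, at 12.9%, 11.4% and 11.3% against 10.3%, 12.4% and 11.6% (exact permutation p = 0.6). For *RNF157-AS1* the log2 ratio of TPM fell by 0.51 while the log2 ratio of counts was 0.46 higher, so its direction depends on the unit.

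**Figure D5:**
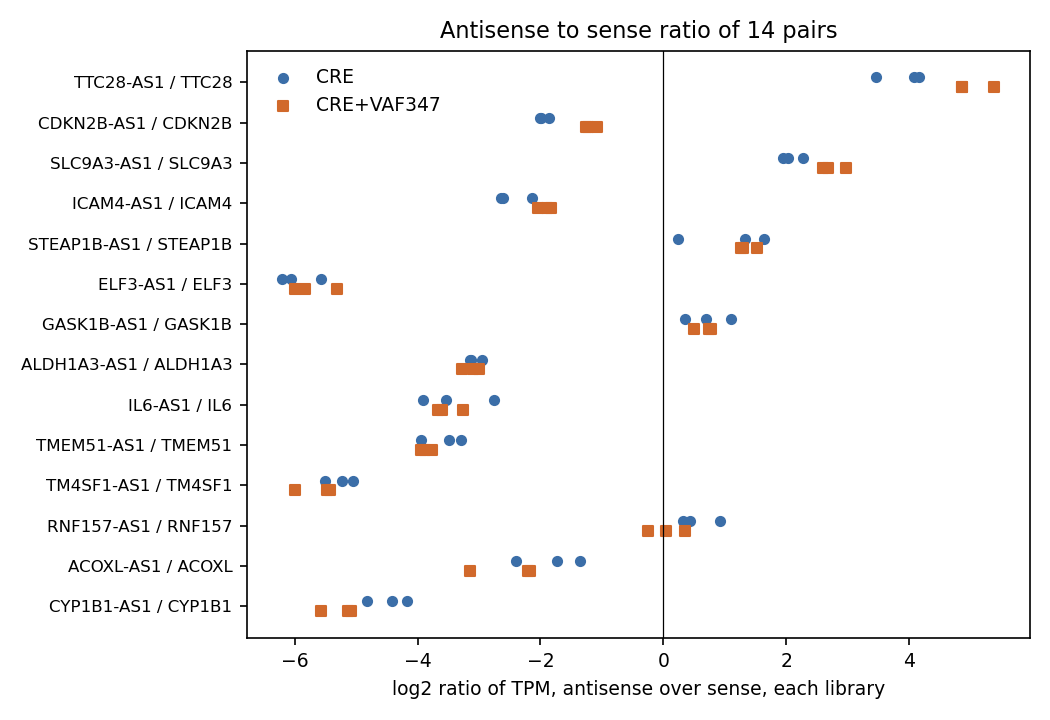
Log2 ratio of antisense over sense TPM in each library for 14 pairs, with CRE as blue circles, CRE + VAF347 as orange squares and the vertical line at equal levels. The groups are separate for *TTC28-AS1*, *CDKN2B-AS1*, *SLC9A3-AS1*, *ICAM4-AS1* and *CYP1B1-AS1* and overlap in the other 9.

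Beyond these pairs, the uncalled antisense genes with the largest values were of low abundance. After *ACOXL-AS1* and *TM4SF1-AS1* came *GAS6-AS1* (log2 fold change -0.81, SE 0.25, edgeR adjusted p = 0.0902), at 5.42, 9.28 and 8.38 CPM against 5.73, 3.04 and 4.47 CPM with overlapping groups. *SOCS2-AS1*, named for a suppressor of cytokine signalling, had 0.79 (SE 0.34), *DGUOK-AS1* 0.76 (SE 0.32), *GSN-AS1*, opposite the actin-severing gelsolin gene, -0.75 (SE 0.33) and *PPP1R14B-AS1* 0.75 (SE 0.35). None of these 5 passed the adjusted threshold of the edgeR test, although *GAS6-AS1*, *SOCS2-AS1*, *DGUOK-AS1* and *GSN-AS1* had an unadjusted p under 0.05.

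At the other end, the 8 most abundant antisense genes changed little. *IGFL2-AS1* was the highest at 91.1 TPM, followed by *OIP5-AS1* at 82.4, *PXN-AS1* at 76.4, *EPB41L4A-AS1* at 64.6, *FGD5-AS1* at 63.9, *PSMA3-AS1* at 62.1, *THUMPD3-AS1* at 47.8 and *TUBA1B-AS1* at 46.6 TPM. *OIP5-AS1*, also called Cyrano and conserved among vertebrates, had 133, 120 and 122 CPM with CRE and 126, 136 and 126 CPM with CRE + VAF347. These overlap, and its log2 fold change of 0.05 (SE 0.06) is well inside 0.5. Among the 8 the log2 fold change ran from -0.13 (*PXN-AS1*, SE 0.06) to 0.26 (*THUMPD3-AS1*, SE 0.11), and the edgeR adjusted p from 0.21 to 0.98.

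A list of 29 antisense genes that have been studied by name held 24 of the 407. The list was drawn up with earlier results of these data known. *CYP1B1-AS1* was the one called (background 2.23%), and it met the count limit only through the CRE + VAF347 group. By sign, 11 were above 0 and 13 below, and the median log2 fold change was -0.04. In the edgeR test 8 had an unadjusted p under 0.05, which 20.8% of all genes had. Nearest to the threshold was *MCM3AP-AS1*, at 12.9, 12.9 and 14.7 CPM with CRE and 10.6, 8.69 and 10.2 CPM with CRE + VAF347 (log2 fold change -0.46, SE 0.12, edgeR adjusted p = 0.0533). *NR2F2-AS1* had a log2 fold change of -0.52 (SE 0.19, edgeR adjusted p = 0.153) and *SBF2-AS1* one of -0.42 (SE 0.14, edgeR adjusted p = 0.112), both with separate groups. *MAPKAPK5-AS1* and *TMPO-AS1* were at 0.27 and 0.25, and *ZEB1-AS1*, opposite a repressor of epithelial genes, at -0.57 (SE 0.33). The 2 HOXA transcripts were at -0.01 (*HOXA-AS2*, SE 0.14) and -0.49 (*HOXA-AS3*, SE 0.26).

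Of 13 AhR target genes listed, 10 were tested and 8 were called higher, where 0.499% of all tested genes were. *CYP1A1* had a log2 fold change of 6.19 (SE 0.17). The list was drawn up with earlier results of these data known, so the count is a description. Among the 13, *CYP1B1* had an antisense gene that met the count limit, through the CRE + VAF347 libraries alone, and *TIPARP-AS1* had 13 counts in all. All 6 epithelial marker genes were over 1 TPM, with a summed level of 3310 to 4106 TPM in CRE and 3332 to 3435 TPM in CRE + VAF347 libraries. *PTPRC*, *CD3E*, *PECAM1* and *VWF*, markers of leukocytes and endothelium, had means under 1 TPM. Other listed markers exceeded it: *CD68* (mean 20.3 TPM), 1 of 4 immune, *CDH5* (5.63 TPM), 1 of 3 endothelial, and *COL1A1* (17.7 TPM), 1 of 5 fibroblast markers. The sums of the immune, endothelial and fibroblast lists were 22.3 to 25.2, 7.31 to 7.92 and 18.2 to 20.5 TPM in CRE libraries. In CRE + VAF347 libraries they were 14.2 to 20.2, 3.95 to 4.67 and 14.5 to 18.0 TPM. The part of these shifts in the antisense values was not tested.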

How the data were processed

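Poly(A)-enriched RNA of 6 HBE cell libraries was sequenced with paired ends. The authors estimated counts per transcript with Salmon, and the deposited table holds these estimated counts per gene name, not scaled to depth. TPM of the same genes were also deposited. Per the labels the build was hg38, and the Salmon version, annotation and use of strand are not given in the sources used here. A deposited DESeq2 table holds only the authors' own comparison and was not used. Columns were matched to samples by the names given in the labels, and 0 were left unmatched.

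Estimated counts were rounded (14.5% of values were not whole) and fitted in R 4.3.3 with edgeR 4.0.16 (TMM, quasi-likelihood test, Benjamini-Hochberg) over all genes with at least 60 counts. Genes were called where the adjusted p was under 0.05 and the log2 fold change exceeded 0.5 in size. The SE is the log2 fold change divided by the square root of the F statistic. The fit was tested on simulated data. Positions and overlaps are from GENCODE v44 on GRCh38, in which all 61228 names were found. The class of overlapping 5′ parts was added to the planned orientation classes. CPM were scaled with TMM factors. Totals per library bound the precision of low counts, and the SE carries it.

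Genes are named if they were called, were among the 8 largest uncalled values or the 8 highest TPM, lay next to the limit of 60, belonged to the list of studied names or had a called sense gene, and not all such genes are given, 1 of them because it is not reported here. Members and lists were chosen with earlier results of these data known. Same-numbered replicates did not deviate together (r of 0.043, 0.080 and 0.00011), so no pairing was used. Alternatives were DESeq2 1.42.0 and its size factors, limma 3.58.1 on log2(TPM + 1) or log2(TPM + 0.1), other filters and thresholds, a GC offset, a replicate block and leaving out each library.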

Additional observations from a re-analysis of the deposited data

How the results depend on the processing

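Counts of calls moved with the settings. With no filter on low counts 11 antisense genes and 598 genes in all (187 higher, 411 lower) were called. Limma on log2(TPM + 1) called 4 antisense genes, 7 sense genes and 129 genes in all, on log2(TPM + 0.1) 4 antisense genes and 123 in all, and on log2(TPM + 1) with no filter 1, 3 and 32 (20 higher, 12 lower). A test against the fold limit itself (glmTreat) called 2, 4 and 49 (25 higher, 24 lower), and an unadjusted p of 0.05 with the same fold limit 26, 17 and 734. At any fold change an adjusted p of 0.05 called 7 antisense genes, 33 sense genes and 857 genes in all. Leaving out each library in turn gave 3 to 6 antisense genes, 8 to 12 sense genes, 192 (without CRE + VAF347 replicate 3) to 379 genes in all and 5 to 7 separate ratios. The replicate block called 6 antisense genes, losing *GASK1B-AS1* (adjusted p = 0.0541), 11 sense genes and 310 in all, and the numbers do not pair the samples. DESeq2 called 5 antisense genes and gave no adjusted p for *CYP1B1-AS1* and *GASK1B-AS1*. The GC offset called 6. It lost *STEAP1B-AS1* (0.67, adjusted p = 0.0505) and *TMEM51-AS1* (-0.55, adjusted p = 0.0714) and added *NAXD-AS1* (0.70, adjusted p = 0.0477, against 0.65 and 0.0558 without it), named after its values were seen. Limma on TPM turned *OIP5-AS1* to -0.087 with a pseudocount of 1, with or without the filter, and to -0.088 with 0.1. Of 950 values of single genes 877 stayed on the same side of the threshold without a reversal, 66 fell below it and 4 passed it. Among the 877, 24 values not called in either fit changed sign within 2 SE. The cause was not tested. Depth limits the antisense genes under 120 counts, where 2 SE is 0.66 on the log2 scale.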

Other observations

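Genes beside the antisense genes that rose were looked up after their values were seen. *SLC9A3-AS1* lies 34945 bases from *AHRR*, the repressor of AhR and one of its targets, which had a log2 fold change of 2.15 (SE 0.15). Between and beside them *EXOC3* was at 0.12 (SE 0.06), *EXOC3-AS1* at 0.07 (SE 0.16) and *PP7080*, whose start is 138 bases from that of *SLC9A3-AS1* on the other strand, at 0.01 (SE 0.10). The start of *ALDH1A3-AS1* lies 64 bases from that of *LRRK1*, which was at 0.30 (SE 0.09, edgeR quasi-likelihood adjusted p = 0.088), and the lncRNA *GCAWKR* on the other side of *ALDH1A3* rose by 0.60 (SE 0.14, edgeR adjusted p = 0.0283).

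Other classes of lncRNA names also had medians near 0. The 181 divergent transcripts (names ending in -DT) centred on a log2 fold change of 0.02 (median), with 1 called higher and 1 lower, which is 1.10% called. The 168 LINC genes had a median of 0.01 and 4 calls (2.38%), all lower. Over all genes 2.23% were called and 1.73% called lower. Antisense genes were also grouped by the family in the name before -AS. The 22 of zinc finger genes had a median of 0.19, the 12 of solute carriers -0.02, the 6 of TMEM genes -0.05 and the 4 of proteasome subunits 0.02. The 4 with names starting with HOX had -0.15. They include *HOXA-AS2* and *HOXA-AS3*, for which no gene of the preceding name exists. The call among the solute carriers was *SLC9A3-AS1* and that among the TMEM genes *TMEM51-AS1*. The nuclear lncRNAs *MALAT1* and *NEAT1* were at 0.17 (SE 0.13) and 0.14 (SE 0.15).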
